A study of Mus musculus with 2 samples.

Results

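Binding of the coactivator EP300 was described at 8 mouse genes that restrain cell division or answer cellular stress: Cdkn1a, Cdkn1c, Gadd45a, Gadd45b, Gadd45g, Sesn1, Btg2 and Mdm2. A peak was taken as belonging to one of them when this gene had the nearest protein-coding transcription start site (TSS) within 100 kb of the peak's summit, or when the summit lay in its gene body. By this rule 65 of the 43988 reproducible peaks belonged to the 8 genes, and none of the 65 was held through the gene body alone. For all other genes, peaks were assigned by the nearest TSS within 100 kb, without the gene body clause. A peak inside such a gene but nearer to another TSS was therefore not counted for it. The nearest TSS is a position, not a measured link between a peak and a gene. The genes were chosen with earlier results of these data known, so their counts beside those of all genes are a description and not independent of the choice.

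The measurements were EP300 chromatin immunoprecipitation with sequencing (ChIP-seq) of whole lung from B6NCrl mice at postnatal day 0, the day of birth. There were 2 libraries and 1 group, with no treatment or genotype, so conditions could not be compared. They are labelled biological replicates 1 and 2, yet both come from 1 donor and 1 biosample, and differences between them may therefore be only technical. The sex of the tissue was not recorded, and a control experiment that the labels name was not analysed here.

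EP300 is a lysine acetyltransferase that DNA-bound transcription factors recruit to active enhancers and promoters. Cdkn1a encodes p21 and Cdkn1c encodes p57, inhibitors of the cyclin-dependent kinases that drive the cell cycle; Cdkn1c is imprinted and expressed from the maternal allele. The Gadd45 genes encode small stress sensors that bind cell cycle proteins and the kinase upstream of p38 and JNK. Btg2 encodes an antiproliferative protein that recruits the CCR4-NOT deadenylase, Sesn1 a sestrin that restrains mTORC1 signalling, and Mdm2 the ubiquitin ligase that turns over p53. Cdkn1a, Gadd45a, Btg2, Sesn1 and Mdm2 are known targets of p53. Several of the 8 are known to respond to glucocorticoids, cytokines or growth factors in various cells.

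The DNA under the peaks is shown for 10 of the 65, which are the strongest peaks of Gadd45g, Sesn1, Btg2 and Cdkn1a, the promoter peak of Mdm2, and a choice of peaks with response elements described further on. Each line gives 100 bp around the summit on the plus strand of mm10, read from the RefSeq GRCm38.p6 assembly, and peaks are numbered by position within each gene. Capitals mark matches to a consensus sequence, searched on both strands.
The following 3 hold a full glucocorticoid response element (GRE, GNACANNNTGTNC), and Gadd45b_9 also holds a FOXO match (GTAAACA, here on the minus strand).
Cdkn1a_1, chr17:29094662-29094761: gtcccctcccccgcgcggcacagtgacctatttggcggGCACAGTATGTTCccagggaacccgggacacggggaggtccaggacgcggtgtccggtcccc
Gadd45b_9, chr10:80962359-80962458: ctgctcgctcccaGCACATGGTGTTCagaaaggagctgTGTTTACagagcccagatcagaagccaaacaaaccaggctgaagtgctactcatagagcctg
Gadd45g_13, chr13:51906230-51906329: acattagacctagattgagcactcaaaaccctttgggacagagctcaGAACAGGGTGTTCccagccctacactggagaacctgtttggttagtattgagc
The next peak has the core of that element (ACANNNTGT) overlapping a FOXO match on the minus strand.
Gadd45g_10, chr13:51892274-51892373: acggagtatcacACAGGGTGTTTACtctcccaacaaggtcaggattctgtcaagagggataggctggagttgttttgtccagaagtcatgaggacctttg
The next 3 hold a match to part of a p53 element. It is a p53 half-site (RRRCWWGYYY) in Gadd45g_16 and Mdm2_2. In Btg2_1 it is a p53 core pair (CWWGNNNNNNCWWG), which was searched without the flanking letters. Here R is A or G, W is A or T, and Y is C or T. Capitals also mark a STAT match (TTCNNNGAA) in Gadd45g_16 and an E-box (CAGCTG) in Mdm2_2.
Gadd45g_16, chr13:51946269-51946368: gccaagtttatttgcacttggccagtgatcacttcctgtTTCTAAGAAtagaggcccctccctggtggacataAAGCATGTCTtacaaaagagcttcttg
Mdm2_2, chr10:117710907-117711006: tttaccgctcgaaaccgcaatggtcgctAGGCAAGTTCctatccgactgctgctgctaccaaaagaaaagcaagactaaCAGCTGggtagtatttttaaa
Btg2_1, chr1:134058959-134059058: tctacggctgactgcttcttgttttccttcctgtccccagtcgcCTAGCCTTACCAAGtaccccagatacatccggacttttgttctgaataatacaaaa
The last 3 have a C/EBP match (TTGCNNAA) in Sesn1_5, an ATF4/CHOP match (TGATGNAA) in Btg2_15, and an E-box, a GATA match (AGATAA) and a GRE core in Btg2_9.
Sesn1_5, chr10:41893782-41893881: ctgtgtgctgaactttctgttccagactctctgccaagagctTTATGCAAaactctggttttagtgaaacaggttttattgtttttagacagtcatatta
Btg2_15, chr1:134079830-134079929: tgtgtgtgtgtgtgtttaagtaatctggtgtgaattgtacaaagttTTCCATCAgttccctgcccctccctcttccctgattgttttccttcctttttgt
Btg2_9, chr1:134071513-134071612: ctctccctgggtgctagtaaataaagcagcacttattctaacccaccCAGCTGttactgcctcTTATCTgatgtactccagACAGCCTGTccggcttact

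EP300 peaks were found at all 8 genes, against 47.1% of the 21827 protein-coding genes with at least 1 peak by the nearest TSS. The 8 genes had 8.13 ± 6.20 peaks each (SD over the 8 genes) with a median of 6, against 1.65 ± 3.22 and a median of 0 over all genes. The peaks were spread unevenly, since Btg2, Gadd45g and Gadd45b held 45 of the 65 and the other 5 genes 20. These 3 genes had at least 10 peaks each, a count reached by 3.28% of all genes. Btg2 had 18 peaks, Gadd45g 16 and Gadd45b 11, and 99.3%, 98.96% and 97.4% of all genes had fewer than each of these. Sesn1 had 7 peaks, Cdkn1c 5, Gadd45a 3, Mdm2 3 and Cdkn1a 2, and 70.2% of all genes had fewer than Cdkn1a. Genes that stand alone can collect more peaks under a nearest-TSS rule, so the counts were also set against the length of sequence assigned to each gene. The 8 genes had a median of 5.01 peaks per 100 kb, against a median of 0 over all genes, most of which had no peak. Pooled over all their assigned sequence, the 8 genes had 8.95 peaks per 100 kb, against 2.31 for all genes pooled. Btg2 had 48.7 peaks per 100 kb, the highest density of the 8, with 99.7% of all genes lower, and Gadd45b had 27.5, with 99.1% lower. Gadd45a had the lowest density of the 8, at 1.76 per 100 kb, which is below the 2.31 of all genes pooled.

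**Figure D1:**
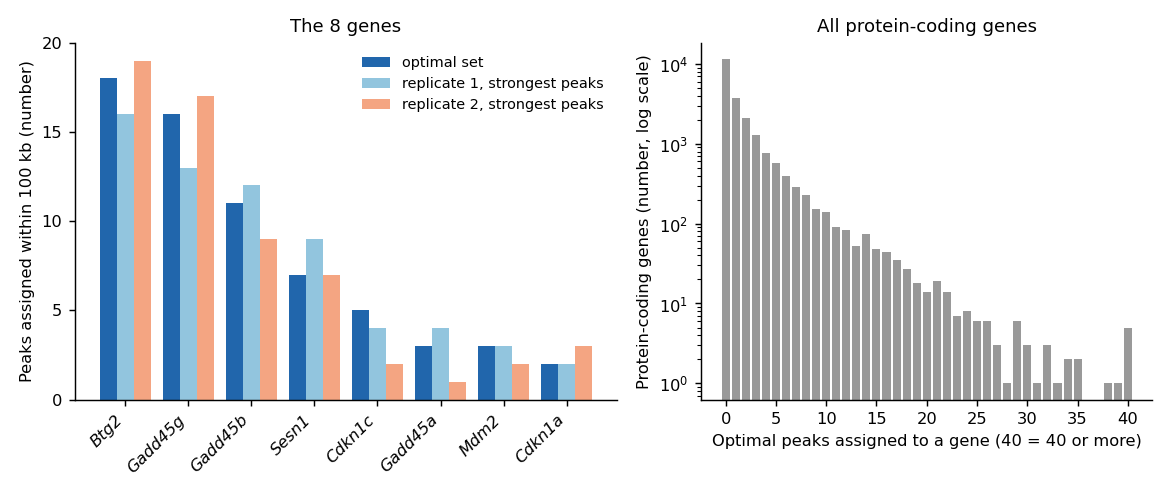
The number of assigned EP300 peaks (vertical axis) is plotted for each of the 8 genes in the optimal set and in each library's strongest peaks on the left, and the number of protein-coding genes at each peak count, on a log axis, on the right. Btg2 (18), Gadd45g (16) and Gadd45b (11) stand above the others, and each library gives a similar order.

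The distribution of peaks around the TSSs is given by the plot of positions. Of the 65 peaks, 33 were intergenic, 21 lay in introns, 9 in promoters (summit within 1 kb of a TSS) and 2 in untranslated regions. The share in promoters was 13.8%, against 12.3% of all optimal peaks, so it was close to that of the whole set. The other classes were not counted over all optimal peaks. Of the 65, 52 (80.0%) lay downstream of the nearest TSS in the direction of transcription and 13 upstream, against 53.1% downstream among all 35983 peaks assigned to a gene. A nearest-TSS rule can assign more sequence on the side where the next gene is farther. At Cdkn1c, Gadd45b and Gadd45g the next protein-coding TSS was farther downstream (353, 68.1 and 685 kb) than upstream (12.7, 11.8 and 52.9 kb). Sesn1, Btg2 and Mdm2 shared that direction, while Cdkn1a and Gadd45a went the other way. How far this shaped the downstream share was not tested. The median distance to the TSS was 13.7 kb, against 16.6 kb over all assigned peaks, and 55.4% lay beyond 10 kb, against 61.3%.

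**Figure D2:**
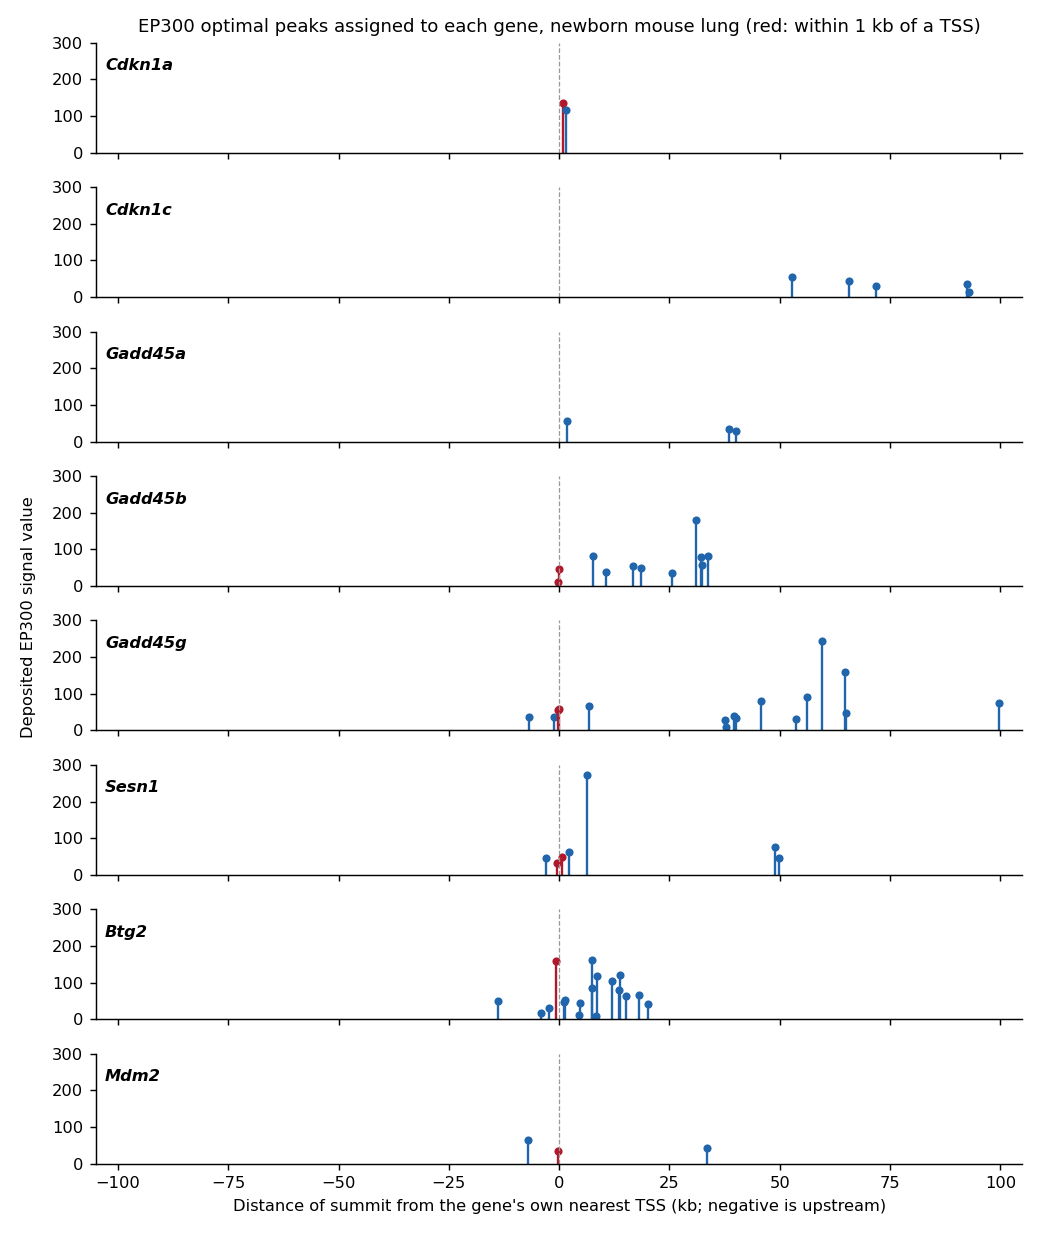
Each stem is 1 of the 65 peaks, at its distance in kb from the nearest TSS of the gene named in the panel (positive is downstream) and with its deposited signal as height, in red within 1 kb of a TSS. The farthest Btg2 peak lies 20.1 kb from the TSS, Gadd45g peaks reach 99.6 kb downstream, and the 5 Cdkn1c peaks lie between 52.9 and 92.8 kb downstream.

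The deposited signal of the 65 peaks had a median of 51.2 and ranged from 10.1 to 272, against a median of 48.5 and a range from 9.91 to 628 over all optimal peaks. Signal is the value that the authors deposited for each peak of the pooled libraries, with no scaling stated. Among the strongest 10% of all peaks were 8 of the 65 (12.3%). At least 1 such peak stood at 5 of the 8 genes, namely Cdkn1a, Gadd45b, Gadd45g, Sesn1 and Btg2, against 10.4% of all genes. Among the weakest 10% were 6 of the 65. The strongest were Sesn1_5 at 272, ranked 366, and Gadd45g_13 at 245, ranked 553.

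**Figure D3:**
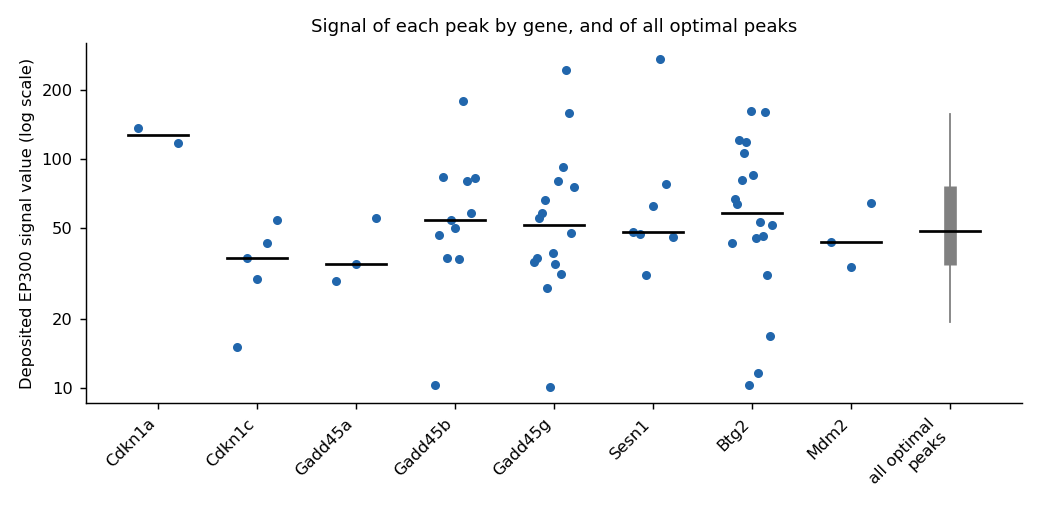
The deposited signal of every peak is plotted on a log axis by gene with a line at each median, and all optimal peaks are shown on the right by their median (48.5), a box from the 25th to the 75th percentile (34.6 to 76.0) and a line from the 5th to the 95th (19.5 to 157). Sesn1 (272) and Gadd45g (245) have the highest single peaks, both Cdkn1a peaks lie above 100, and the highest peak of Cdkn1c, Gadd45a and Mdm2 together is at 64.4.

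Among the cyclin-dependent kinase inhibitors, Cdkn1a had few but strong peaks and Cdkn1c weaker, distant ones. Cdkn1a (ENSMUSG00000023067.14, chr17:29090976-29100727, plus strand) had 2 peaks, both inside the gene. The stronger, Cdkn1a_1 (chr17:29094665-29094781), lay 0.931 kb downstream of an internal TSS and 3.74 kb from the gene's first base, with a signal of 136 and a rank of 3232. Its signal was 80.8 in library 1 and 56.2 in library 2. Cdkn1a_2 (chr17:29095157-29095580), in an intron, had a signal of 117, with 52.99 in library 1 and 62.3 in library 2. Both peaks were thus among the strongest of both libraries, and library 1 was higher at the first peak and lower at the second. Neither Cdkn1a peak was at the gene's first TSS. The neighbours Srsf3, at 58.3 kb, and Rab44, at 23.2 kb, had 5 and 2 assigned peaks.

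Cdkn1c (ENSMUSG00000037664.13, chr7:143458339-143461050, minus strand) had 5 peaks, all in introns of the neighbouring gene Kcnq1, which encodes a potassium channel subunit. They lay 52.9 to 92.8 kb downstream of Cdkn1c, and their signals were 15.1, 36.9, 29.9, 43.1 and 53.9. No summit lay within 1 kb of a Cdkn1c TSS. The peak nearest to Cdkn1c, Cdkn1c_5 (chr7:143407928-143408351), was also its strongest, with 38.1 in library 1 and 13.03 in library 2, where it was outside the strongest peaks. Cdkn1c_4 had 21.2 in library 1 and 19.7 in library 2, and Cdkn1c_2 23.0 in library 1 and 14.0 in library 2. These were the only 2 of the 5 found among the strongest peaks of both libraries. Library 2 alone gave Cdkn1c 2 peaks and library 1 alone gave 4. By the nearest TSS, Kcnq1 had no assigned peak, although the 5 peaks above lay inside it. Its TSS lies 353 kb from that of Cdkn1c. Slc22a18, at 12.7 kb on the other side, had no assigned peak.

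Of the Gadd45 family, Gadd45g and Gadd45b had many peaks and Gadd45a few. Gadd45a (ENSMUSG00000036390.8, chr6:67035096-67037457, minus strand) had 3 peaks and none in its promoter. The strongest, Gadd45a_3 (chr6:67035368-67035791), lay in an untranslated region of the gene itself, 1.67 kb downstream of the TSS, with a signal of 55.3. It had 35.2 in library 1 and 20.3 in library 2. Gadd45a_1 (29.4) and Gadd45a_2 (34.8) lay in introns of Gng12, a G protein gamma subunit gene, 40.1 and 38.4 kb downstream. Gadd45a_1 had 17.7 in library 1 and 9.997 in library 2, and Gadd45a_2 21.9 in library 1 and 13.4 in library 2. Library 2 held both only outside its strongest peaks, so Gadd45a had 1 peak in library 2 alone and 4 in library 1 alone. Gng12, whose TSS lies 141 kb away, had 2 assigned peaks, and Serbp1, at 229 kb on the other side, had 1.

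Gadd45b (ENSMUSG00000015312.9, chr10:80930073-80932204, plus strand) had 11 peaks over 34.4 kb. Both of its promoter peaks were below the median of all peaks: Gadd45b_2 (chr10:80929920-80930343), 0.029 kb before the nearest TSS, had a signal of 46.6, and Gadd45b_1 (chr10:80929633-80930056), 0.228 kb before its nearest TSS, 10.4. Gadd45b_2 had 27.7 in library 1 and 17.5 in library 2. Gadd45b_1 overlapped it, had no library 1 summit within 100 bp and had 10.8 in library 2. The highest signal lay far downstream, in an intron of Gng7, another G protein gamma subunit gene. There Gadd45b_8 (chr10:80961027-80961450), 31.1 kb from the TSS, had 179 and ranked 1503, with 104 in library 1 and 76.8 in library 2. Next came Gadd45b_3 (chr10:80937581-80938004), intergenic at 7.63 kb, with 83.1, and Gadd45b_11 (chr10:80963611-80964034), at 33.7 kb, with 82.2. Gadd45b_3 had 55.6 in library 1 and 28.2 in library 2, and Gadd45b_11 had 43.7 in library 1 and 44.0 in library 2. Of the 11 peaks, 6 lay within Gng7, which itself had 4 assigned peaks, and the remaining signals ranged from 36.8 to 80.0. The TSS of Lmnb2, 11.8 kb away on the other side, had no assigned peak.

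Gadd45g (ENSMUSG00000021453.2, chr13:51846678-51848468, plus strand) had 16 peaks over 107 kb, of which 14 were intergenic and 2 in the promoter. Gadd45g_3 (chr13:51846288-51846711), 0.178 kb before the TSS, had a signal of 55.3, and Gadd45g_4 (chr13:51846523-51846946), 0.057 kb after it, 58.3. Gadd45g_4 had 33.7 in library 1 and 24.3 in library 2. Gadd45g_3 overlapped it, had 33.9 in library 2 and had no library 1 summit within 100 bp. The strongest peaks were again distant. Gadd45g_13 (chr13:51906186-51906382), 59.6 kb downstream, had 245, with 134 in library 1 and 108 in library 2. Gadd45g_14 (chr13:51911262-51911685), 64.8 kb downstream, had 158, with 75.04 in library 1 and 81.2 in library 2. Gadd45g_12 (chr13:51902705-51903128), 56.2 kb downstream, had 91.95, with 58.8 in library 1 and 30.6 in library 2. These 3 peaks lay next to each other, and the other peaks downstream had signals from 10.1 to 79.7. The next protein-coding TSS on the downstream side, that of Diras2, was 685 kb away and had no assigned peak, while on the upstream side that of Sema4d was 52.9 kb away, with 3. Peaks nearest to the Gadd45g TSS therefore lay on both sides of the 100 kb limit. Gadd45g_16, at 99.6 kb with a signal of 75.02, was just inside it and stood apart from Gadd45g_15, at 65.0 kb. The next peak, at 116 kb with 31.6, was outside. Beyond the limit the nearest TSS was that of Gadd45g for 17 more peaks, up to 326 kb away and with signals from 27.1 to 132, against 2 more for Gadd45a, 1 for Cdkn1c and none for the other 5 genes.

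Btg2 (ENSMUSG00000020423.6, chr1:134075170-134079120, minus strand) had the most peaks of the 8 in the optimal set, and they were packed around the gene. Gadd45g had as many in the conservative set, with 18 each, and more at any distance, with 33. Its 18 peaks lay over 34.3 kb (chr1:134058797-134093113), 14 downstream and 4 upstream of the TSS, with 15 intergenic and 2 in its own intron. The promoter peak Btg2_15 (chr1:134079668-134080091), 0.760 kb before the TSS, had a signal of 159, with 92.6 in library 1 and 75.5 in library 2. It was the strongest promoter peak of the 8 genes. Btg2_9 (chr1:134071351-134071774), 7.56 kb downstream, was slightly higher at 162, with 102 in library 1 and 57.6 in library 2. Btg2_4 (chr1:134065186-134065609), 13.7 kb downstream, had 121, with 63.3 in library 1 and 52.5 in library 2. The other signals ranged from 10.4 to 119, and Btg2_6 (106) and Btg2_7 (119) were above 100 too. Btg2_14, 1.02 kb from the TSS, lay just outside the promoter limit. Of the 18 peaks, 13 were among the strongest of both libraries. The nearest genes on either side, Fmod at 41.9 kb and Chit1 at 32.1 kb, had 6 and 10 assigned peaks.

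Sesn1 (ENSMUSG00000038332.13, chr10:41809935-41908424, plus strand) had 7 peaks and the strongest peak of the 8 genes. Sesn1_5 (chr10:41893683-41893991), in an intron 6.39 kb after the internal TSS at base 41887439, had 272, with 160 in library 1 and 114 in library 2. Sesn1_6 (chr10:41936127-41936550), in an intron of Armc2, had 77.3, with 45.1 in library 1 and 29.8 in library 2. Sesn1_4 (chr10:41889525-41889948) had 62.3, with 33.2 in library 1 and 29.2 in library 2. The promoter peaks were weaker. Sesn1_1 (chr10:41810390-41810813), 0.667 kb after the first TSS, had 48.2, with 23.3 in library 1 and 21.8 in library 2. Sesn1_3 (chr10:41886699-41887122), 0.528 kb before the internal TSS, had 31.2, with 18.2 in library 1 and 12.3 in library 2. The first promoter is shared, since the TSS of Cep57l1 lies 0.064 kb away on the other strand, and Sesn1_1 cannot be placed with one of them rather than the other. Armc2, whose TSS lies 208 kb away on the other side, had 13 assigned peaks.

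Mdm2 (ENSMUSG00000020184.15, chr10:117688875-117710758, minus strand) had 3 peaks of modest signal. Its promoter peak Mdm2_2 (chr10:117710745-117711168), 0.199 kb before the TSS, had 33.8, with 20.3 in library 1 and 12.6 in library 2, where it was outside the strongest peaks. Mdm2_3 (chr10:117717671-117718094), intergenic and 7.13 kb upstream, had 64.4, with 38.2 in library 1 and 21.8 in library 2. Mdm2_1 (chr10:117676960-117677383), in an intron of Cpm 33.6 kb downstream, had 43.4, with 21.7 in library 1 and 21.5 in library 2. Cpm, with its TSS 81.3 kb away, had 6 assigned peaks, and Slc35e3, at 35.6 kb on the other side, had 3.

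Promoter peaks were found at 6 of the 8 genes, against 20.5% of all genes, and Cdkn1c and Gadd45a had none. With peaks limited to the stronger 50% of the set, or to summits within 500 bp of a TSS, 3 of the 8 genes had one. They were Cdkn1a, Gadd45g and Btg2 in the stronger 50%, and Gadd45b, Gadd45g and Mdm2 within 500 bp. Only Gadd45g met both limits, and no share of all genes is given at these settings. At Gadd45b, Gadd45g, Sesn1 and Mdm2 the strongest peak lay outside the promoter, 6.39 to 59.6 kb from the nearest TSS. At Btg2 the promoter peak (159) and the strongest distal peak (162) were nearly equal.

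The libraries were compared by the peaks found among the strongest 43988 of each, with summits within 100 bp. Both libraries held 42 of the 65 peaks (64.6%), against 63.0% of all optimal peaks, so the share was close to that of the whole set. A further 9 were held by library 1 alone, 6 by library 2 alone and 8 by neither at this rank. This split is not given for all optimal peaks. The conservative reproducible set held 57 of the 65 unchanged (87.7%), against 80.1% of all optimal peaks. Over the 42 shared peaks the median log2 ratio of library 1 to library 2 was 0.49 (SD 0.42), against 0.38 (SD 0.44) over the 27704 shared peaks of the whole set. Since the signals carry no stated scaling, this offset cannot be read as a difference in binding. After the median over all shared peaks was removed, 41 of the 42 were within 2-fold between the libraries. No such share is given for the 27704 shared peaks of the whole set, whose ratios had a similar SD. The 41 of 42 therefore does not set these genes apart. Assigned separately, the strongest peaks of the libraries gave the 8 genes 63 peaks in library 1 and 60 in library 2 (61.5 ± 2.12, SD, n = 2). Gadd45b had 12 in library 1 and 9 in library 2, Gadd45g 13 and 17, and Btg2 16 and 19, so the same 3 genes led in both.

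**Figure D4:**
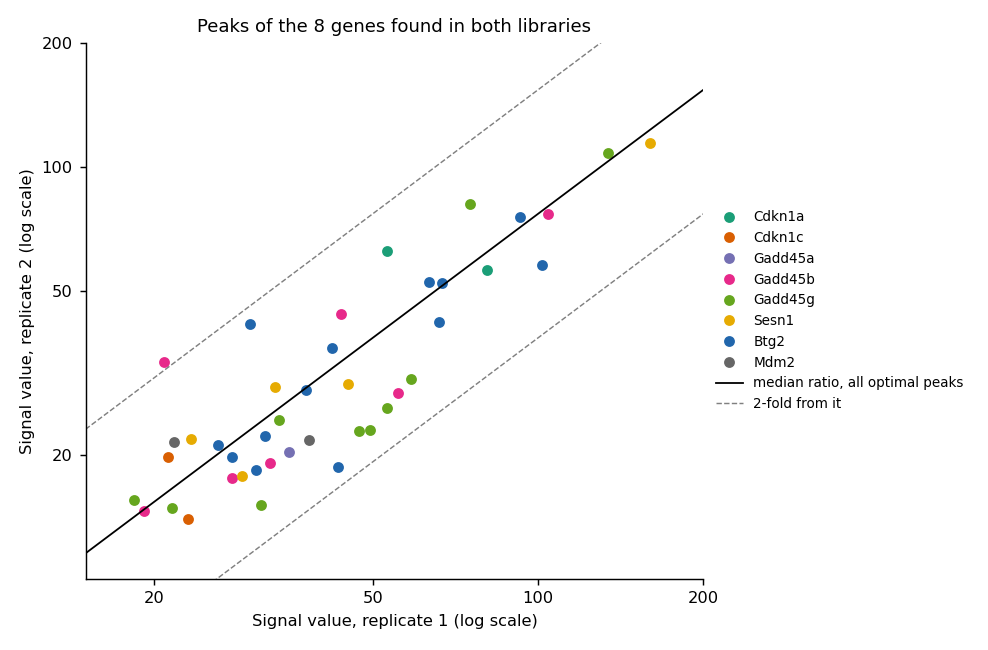
The signal of library 2 is plotted against that of library 1, on log axes, for the 42 peaks found among the strongest of both libraries, with a solid line at the median ratio of all shared peaks and dashed lines 2-fold from it. The points follow the solid line, with the highest points at Sesn1 and Gadd45g, and library 1 is higher by a median log2 ratio of 0.49.

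Overlapping peaks were common at these genes, as 22 of the 65 (33.8%) overlapped another peak, against 20.01% of all optimal peaks. Merging them left 54 peaks, with 13 each at Btg2 and Gadd45g and 9 at Gadd45b. The order of the leading genes then no longer separated Btg2 from Gadd45g. The total included 5 peaks beyond rank 100000 of the pooled list, at Cdkn1c, Gadd45b and Gadd45g with 1 each and Btg2 with 2. The share of all optimal peaks beyond that rank is not given.

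Response elements were counted in the central 100 bp of each peak with 20 consensus sequences, on both strands. A match describes letters and is not a binding site, and the counts over 65 peaks are small. At least 1 match was found in 41 of the 65 peaks (63.1%), against 58.8% of all optimal peaks. The full GRE stood in 3 of the 65 (4.62%), against 2.17% of all peaks and 0.114% of windows of the same length at gene starts. Most of the 65 peaks lay outside promoters, so gene starts are an unlike reference for them. These 3 are Cdkn1a_1, Gadd45g_13 and Gadd45b_9, and the element's centre lay 6 bp before, 3 bp after and 31 bp before the summit. Cdkn1a_1 and Gadd45g_13 are the strongest peaks of their genes. Gadd45b_9 (chr10:80962197-80962620, in Gng7) had a signal of 80.0, with 55.0 in library 1. It overlapped Gadd45b_10 and had no library 2 summit within 100 bp. The GRE core, which every full GRE contains, stood in 7 peaks (10.8%), against 7.08% of all peaks.

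For the p53 half-site and core pair the counts were small and near the share of the whole set. A p53 half-site stood in 3 of the 65 peaks (4.62%), against 3.43% of all peaks, in Gadd45g_15, Gadd45g_16 and the Mdm2 promoter peak. A p53 core pair stood in 1 (1.54%), Btg2_1, against 3.03%. Neither was matched in the central 100 bp of a peak of Cdkn1a, Gadd45a or Sesn1. These counts depend on the window. In whole peaks a half-site stood in 10 and a core pair in 5. Among them, Sesn1_4 held a half-site, and Mdm2_3 held a half-site and a core pair that overlapped. The share of all peaks was not computed for whole peaks.

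The ATF4/CHOP sequence of the integrated stress response stood in 2 peaks (3.08%), against 2.26%, and both were close to their gene, in the Btg2 promoter peak and in Gadd45a_3 in the untranslated region. FOXO matches stood in 4 peaks (6.15%), against 5.35%, in Gadd45b_9, Gadd45g_10, Sesn1_1 and Btg2_6. The E-box CAGCTG was the most frequent of the 20 in these peaks, with 10 (15.4%), against 8.003% of all peaks and 6.23% of windows at gene starts. The AP-1 sequence TGACTCA stood in 2 (3.08%), both at Gadd45g, against 5.94%. C/EBP matches stood in 5 (7.69%), against 8.70%, TEAD matches (CATTCC) in 7 (10.8%), against 11.7%, GATA matches in 6 (9.23%), against 8.31%, and STAT matches in 4 (6.15%), against 6.03%. NKX2 (CACTTGA), CRE (TGACGTCA), SMAD (GTCTAGAC), ETS (CCGGAAGT) and KLF/SP (GGGCGGG) sequences were matched in none of the 65, against 3.13%, 0.403%, 0.114%, 0.737% and 2.50% of all peaks. Of the remaining sequences, NF-kB stood in 2 (3.08%), against 2.22%, the antioxidant element (TGACNNNGC) in 2 (3.08%), against 4.25%, and the CTCF core in 1 (1.54%), Mdm2_1, against 0.348%. Some sequences were more frequent at gene starts than in the 65 peaks, such as KLF/SP (18.1% of windows), the antioxidant element (5.12%) and ETS (3.18%).

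**Figure D5:**
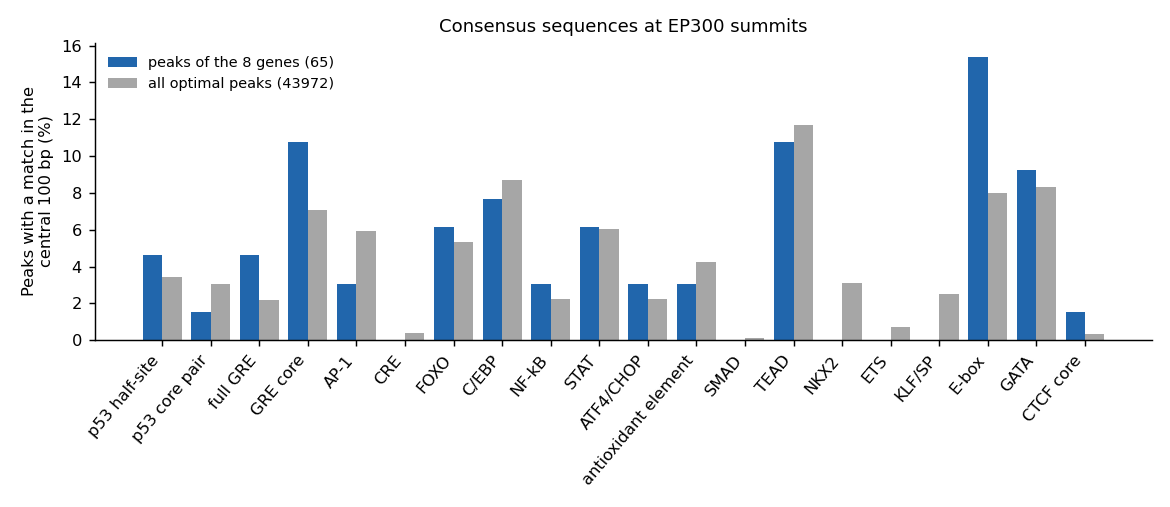
Bars give the percent of peaks with a match in the central 100 bp, for the 65 peaks of the 8 genes and for all optimal peaks, by consensus sequence. The E-box (15.4% against 8.003%) shows the widest gap and the GRE core (10.8% against 7.08%) the next.

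Other genes of these pathways also carried peaks, though mostly fewer. Of 57 further genes in 5 lists, 47 (82.5%) had a peak, against 47.1% of all genes, with a mean of 2.91, against 1.65. A promoter peak was found at 22 (38.6%), against 20.5% of all genes. A gene listed both as a sestrin relative and under the integrated stress response is not repeated in these totals. Of 5 further cyclin-dependent kinase inhibitors, 4 had a peak, led by Cdkn1b (p27) with 4 and Cdkn2b with 3, then Cdkn2c with 2 and Cdkn2d with 1, while Cdkn2a had none. The relatives of Sesn1 and Btg2 all had peaks, with a mean of 5.17 over 6 genes, and Tob2 had 8, Btg3 7, Btg1 6 and Sesn3 6. Of 8 genes of the p53 family and its regulators, 6 had a peak, with 4 each at Rchy1, a p53 ubiquitin ligase, and Trp63, and 2 each at Cop1 and Ppm1d. Mdm4, the close relative of Mdm2, and Trp73 had none. Of 27 other p53 targets 21 had a peak, with a mean of 2.44, and 6 had none. The leading ones were Dram1 with 8, the death receptor gene Fas with 7, and Pmaip1 and Bbc3, which encode the proapoptotic proteins Noxa and Puma, with 5 each. In the integrated stress response list 11 of 12 genes had a peak, with a mean of 3.83. There Ddit4, an inhibitor of mTORC1 signalling, had 15, Vldlr 10, the transcription factor gene Atf3 7 and Chac1 4. Cdkn1a (2 peaks) thus had fewer than Cdkn1b and Cdkn2b, Sesn1 (7) more than the sestrin gene Sesn3 (6), and Btg2 (18) more than any of its listed relatives.

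The labelled tissue was checked with marker genes. Of 12 lung markers 11 had a peak, with a mean of 7.75 and promoter peaks at 9, led by Hopx and Sftpb with 18 each, and the ciliated cell gene Foxj1 had none. Of 10 markers of other organs 6 had a peak, with a mean of 1.80 and none in a promoter. Over all genes, 47.1% had a peak, with a mean of 1.65, and 20.5% had one in a promoter, so having a peak did not by itself set the markers of other organs below all genes. Whole lung holds many cell types, and which of them carried the peaks at the 8 genes was not measured.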

How the data were processed

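EP300 ChIP-seq peak lists of 2 libraries of newborn mouse lung were used. Per the deposited notes, the authors aligned to mm10, called peaks per library and on both pooled, and derived optimal (43988 peaks, used here) and conservative (42473) sets by the irreproducible discovery rate. Each library list and the pooled list held 300000 peaks. The sources used here name neither aligner nor peak caller. Each signal value was deposited by the authors, and its scaling is not stated. Read counts were not in the files used here, so depth is unknown and no interval is given.

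Summits were assigned to the nearest of the protein-coding TSSs of GENCODE vM21, 21827 genes, within 100 kb. The 43972 peaks on the 21 chromosomes were used, leaving out 16 elsewhere. A library was represented by its strongest 43988 peaks. Sequences came from the RefSeq GRCm38.p6 genome. No test was run, since 1 group allows none. The rule for named genes took all 8 genes, their nearest neighbours and, of each pathway list, the 4 genes with most peaks, and for each of the 8 the 3 strongest peaks and every promoter peak. Marker genes of the tissue check, genes without a peak and further peaks named for a sequence or a limit fall outside it, and were picked once their values had been seen. The 8 genes and the lists were chosen with earlier results of these data known. The code was checked on simulated data. Alternatives covered the peak set, single libraries, distances, merging and windows. Python 3.11.15, numpy 2.4.6 and matplotlib 3.10.9 were used.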

Additional observations from a re-analysis of the deposited data

How the results depend on the processing

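The 65 peaks at the 8 genes became 34 in the stronger 50% of the set and 29 within 10 kb of a TSS, and otherwise ranged from 54 to 85. Single libraries gave 60 to 63. Genes with a promoter peak, 6 of 8, became 3 within 500 bp, 3 in the stronger 50%, and 5 to 7 otherwise. There were 5 in library 2 alone, where Mdm2 lost its peak. With only the first base of each gene as its TSS there were also 5, and Cdkn1a lost its peak. The share found in both libraries, 64.6%, was 52.3% with summits within 50 bp, 69.2% within 200 bp, 80.0% at any overlap, 78.5% in the strongest 100000 peaks, 78.5% in all peaks of each library, and 70.0% without peaks beyond pooled rank 100000, an alternative chosen after seeing the data. Shares of all optimal peaks in both libraries are not given at these settings. The median signal, 51.2, was 79.9 in the stronger 50% by construction. Peaks with a response element, 41, were 27 in the central 50 bp and 62 in whole peaks, as shorter or longer windows were searched. Gadd45g had 10 peaks within 50 kb and 33 at any distance, and Cdkn1c 0 within 50 kb. The other causes were not tested. No paired analysis was possible because there was 1 group, so no groups shared replicate numbers.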
